A study of Homo sapiens with 8 samples.

Results

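The EGR, IER and KLF early genes are 10 genes that cells switch on soon after a stimulus, and they were taken by name: EGR1, EGR2, EGR3, IER2, IER3, IER5, KLF4, KLF6, TRIB1 and MYC. All 10 were found among the 58735 genes measured, each through its Ensembl identifier in release 29 of the GENCODE annotation. The RNA came from U2OS, an established human osteosarcoma cell line. Control cells were U2OS cells transduced with a control shRNA and are labelled WT, and KD cells were U2OS cells transduced with an shRNA against WSB2, a substrate receptor of a cullin ubiquitin ligase. Either kind of cell was left without TNF-α or stimulated with TNF-α for 5 h, which gives 4 groups of 2 libraries and 8 libraries in all. All 4 groups thus carried an shRNA. Which WSB2 shRNA was used, the concentration of TNF-α, and whether the cells were a pool or a clone are not given in the sources used here. The libraries held between 15601098 and 18677023 reads. Levels are given in FPKM, fragments scaled to exon length and library size. Because of the scaling to length, levels can be compared between genes. Nothing in the labels says that the 2 libraries of a group came from separate cultures, so the P-values below measure only the spread between these libraries, which may be technical.

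Early response genes need no new protein to be transcribed. Growth factors and stress reach them through ERK, which phosphorylates ternary complex factors bound with SRF at CArG boxes, and TNF-α reaches many of them through NF-κB. The EGR and KLF proteins are zinc finger transcription factors, and the IER genes share a name for their timing. TRIB1 is a pseudokinase that brings substrates to the ubiquitin ligase COP1, and MYC is a transcription factor of growth and ribosome production. Most of their transcripts are short-lived, so that a level hours after a stimulus reflects transcription and decay at that time rather than the first pulse.

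The promoters of the pair of EGR genes that were measurable are shown first, because EGR1 and EGR2 carry the CArG box to which SRF binds. The sequences are those of RefSeq on GRCh38.p14, written 5′ to 3′ on the strand of the gene and ending at the base before the annotated start of transcription, with CArG boxes in capitals. EGR1 is chr5:138465229-138465478 on the plus strand, and EGR2 is chr10:62816367-62816616 on the minus strand, upstream of the start at 62816366. It is 1 of 3 annotated starts of EGR2 and lies within the EGR2 gene as GENCODE draws it.
EGR1: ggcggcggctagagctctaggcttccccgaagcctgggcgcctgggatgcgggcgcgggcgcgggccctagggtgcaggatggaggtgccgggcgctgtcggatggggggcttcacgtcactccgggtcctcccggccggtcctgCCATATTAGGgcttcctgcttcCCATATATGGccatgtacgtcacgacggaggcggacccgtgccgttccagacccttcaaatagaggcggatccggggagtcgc
EGR2: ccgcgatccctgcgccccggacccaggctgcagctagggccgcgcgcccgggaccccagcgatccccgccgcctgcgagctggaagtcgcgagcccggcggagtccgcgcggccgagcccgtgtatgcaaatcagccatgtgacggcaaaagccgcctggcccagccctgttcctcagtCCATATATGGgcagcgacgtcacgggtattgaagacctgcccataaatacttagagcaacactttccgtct
The EGR1 window held 2 CArG boxes, beginning 105 and 83 bases before the start, and this EGR2 window held 1, beginning 71 bases before the start.

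Windows of 300 bases, from 250 before to 50 after each annotated start, were searched on both strands for 7 motifs. Of 35116 such windows in RefSeq, 1.29% held a CArG box, 11.3% the κB motif, 1.85% TGACGTCA, the cyclic AMP response element, and 0.795% GCGTGGGCG, the motif of the EGR proteins themselves. A TATAAA was found in 11.5%, CACGTG, the E-box of MYC and MAX, in 7.26%, and GGGCGG, the GC box of the SP and KLF proteins, in 45.0%. Windows of EGR1, EGR2, IER2, IER5, KLF4 and KLF6 were examined, and those of EGR3, IER3, TRIB1 and MYC were not. CACGTG was matched once in KLF4, once in KLF6 and in the EGR2 window that starts at 62818775, which also held the only κB match among these genes. GGGCGG was matched at 4 places in IER2, 4 in KLF4, 2 in KLF6, and 4 and 2 in the other EGR2 windows. In the EGR2 window that starts at 62818775, GGGCGG matches shared a base with each other and with CACGTG. TGACGTCA, GCGTGGGCG and TATAAA were matched in none of these windows. None of the 7 motifs was matched in the IER5 window, shown for contrast (chr1:181088450-181088699, plus strand).
IER5: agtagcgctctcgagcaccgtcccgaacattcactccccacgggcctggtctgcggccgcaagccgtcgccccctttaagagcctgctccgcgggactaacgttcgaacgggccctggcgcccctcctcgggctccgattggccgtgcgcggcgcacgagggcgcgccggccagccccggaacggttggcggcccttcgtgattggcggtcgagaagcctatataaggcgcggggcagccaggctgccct
A match is a match of letters only, and the absence of a match says nothing about a factor.

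WSB2, the target of the shRNA, was measured first (ENSG00000176871). Its level was 27.7 and 28.0 FPKM in unstimulated control cells and 8.38 and 8.52 FPKM in the KD cells. Stimulated cells had 25.0 and 25.3 FPKM with the control shRNA and 9.002 and 9.18 FPKM with the WSB2 shRNA. All 4 KD libraries lay below all 4 control libraries, and WSB2 fell by 1.61 on the log2 scale without TNF-α (adjusted p = 1.2e-04, limma) and by 1.37 with TNF-α (adjusted p = 0.00113).

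Markers of the cell type were examined in the same libraries. COL1A1, SPARC and VIM, which mesenchymal and bone cells make in quantity, had medians of 247, 261 and 172 FPKM over the 8 libraries. RUNX2, the osteoblast transcription factor, had a median of 1.76 FPKM and ALPL of 4.03 FPKM, whereas COL1A2 had 0.0575 FPKM and TWIST1 had no read in any library. Of the markers of other cell types, no median exceeded that of EPCAM, an epithelial marker, at 0.355 FPKM. The leukocyte markers PTPRC, CD3E and CD68 had medians of 0.0165, 0 and 0 FPKM, and the endothelial marker VWF had a median of 0.241 FPKM. These are bulk libraries, in which fewer cells of a type and less RNA per cell cannot be told apart.

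The 2 libraries of unstimulated KD cells stood apart from the other 6. In them mitochondrial transcripts made up 4.10% and 4.42% of the reads, whereas the other 6 ranged from 1.11% to 2.03%. The GC content of each gene's longest transcript, averaged over genes with their reads as weights, was lower. It was 49.4% and 49.9% rather than 52.5% to 53.2%. This mean depends on which genes the reads came from, and the bases of the reads were not examined. More genes were seen at all, 26225 and 26397, where the other libraries saw 22072 to 22957. The authors' library size was 1.21 times the read total in both, against 0.925 to 1.03 times in the other 6. The fold changes of the early genes that rest on these 2 libraries are therefore also given after a correction by GC content and exon length. The part of mitochondrial reads in those results was not tested.

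Of the 10 early genes, 8 were abundant enough to be tested, and EGR3 and KLF4 were not. IER3 was the highest of the 10 in each group. In unstimulated control cells the mean levels were 66.7 ± 10.2 FPKM for IER3, 54.7 ± 6.86 for IER5, 34.0 ± 1.52 for MYC, 18.1 ± 3.04 for IER2 and 14.4 ± 2.28 for EGR1 (SD, n = 2 here and throughout). TRIB1 followed at 4.25 ± 0.532 FPKM, KLF6 at 4.10 ± 0.810, EGR2 at 0.148 ± 0.0562, EGR3 at 0.0920 ± 0.0718 and KLF4 at 0.0444 ± 0.0404. In that order IER3 and IER5 overlapped, as did IER2 and EGR1, TRIB1 and KLF6, EGR2 and EGR3, and EGR3 and KLF4, while MYC was separate from its neighbours on either side. In TNF-α-stimulated KD cells, where the libraries lay closest together for all tested genes but EGR2, IER3 at 313 ± 0.204 FPKM was followed by MYC at 84.2 ± 0.513, IER5 at 80.2 ± 1.01, EGR1 at 61.7 ± 0.161 and IER2 at 36.6 ± 1.11, with no overlap between neighbours.

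**Figure D1:**
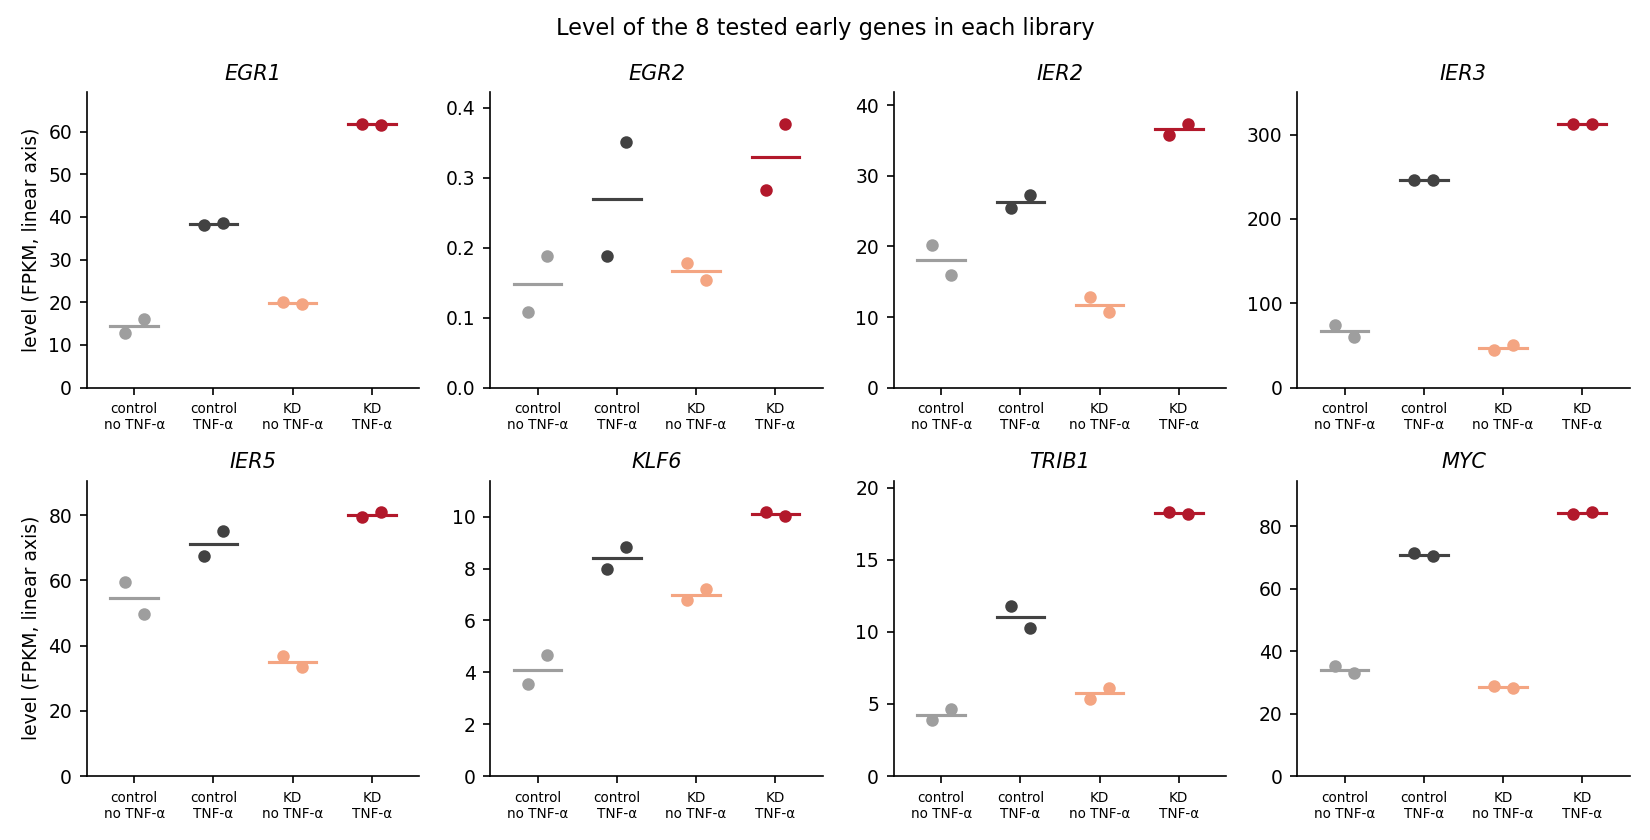
Level of each of the 8 tested genes in FPKM (vertical axis, linear, starting at 0, own scale per gene) in control and KD cells without and with 5 h of TNF-α. Each point is a library and each line the mean of 2. The TNF-α-stimulated KD libraries were the highest of the 8 for all genes but EGR2, for which a control library with 0.352 FPKM lay between the 2 KD libraries.

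EGR1 (ENSG00000120738, GRCh38 chromosome 5, 138465490 to 138469315, plus strand) encodes the best studied of the EGR zinc finger factors. Its level was 12.8 and 16.0 FPKM in unstimulated control cells, 38.2 and 38.7 FPKM in stimulated control cells, 20.1 and 19.7 FPKM in unstimulated KD cells and 61.9 and 61.6 FPKM in stimulated KD cells. The 4 groups did not overlap, and their order was control, KD, control with TNF-α, KD with TNF-α. The values rest on 602 to 3354 reads per library.

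EGR2 (ENSG00000122877, chromosome 10, 62811996 to 62919900, minus strand), known for its part in myelination and in lymphocytes, was close to the limit of measurement. It had 0.108 and 0.188 FPKM in unstimulated control cells, 0.187 and 0.352 in stimulated control cells, 0.178 and 0.154 in unstimulated KD cells and 0.282 and 0.377 in stimulated KD cells. Only in KD cells did the stimulated libraries lie above the unstimulated ones, and no library had more than 22 reads of EGR2. At such levels the log2 fold change on log2(FPKM + 1) understates the change.

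EGR3 (ENSG00000179388, chromosome 8, 22687659 to 22693302, minus strand) had 3 to 12 reads per library and 46 in all. Its levels ran from 0.0401 FPKM in a stimulated control library to 0.143 FPKM in an unstimulated one, and the 4 groups overlapped. A transcript on the opposite strand, AC055854.1, overlaps EGR3 and had 37 reads. The strand used in counting is not given in the sources used here, so reads of the 2 genes cannot be told apart. A difference between groups was not detectable for EGR3 at this depth.

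IER2 (ENSG00000160888, chromosome 19, 13150415 to 13154908, plus strand) encodes a nuclear protein. It had 20.2 and 15.9 FPKM in unstimulated control cells, 25.4 and 27.3 in stimulated control cells, 12.8 and 10.7 in unstimulated KD cells and 35.8 and 37.4 in stimulated KD cells. Its order differed from that of EGR1, for the unstimulated KD libraries were the lowest of the 8 and the stimulated KD libraries the highest. The same order held for IER3, IER5 and MYC.

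IER3 (ENSG00000137331, chromosome 6, 30743199 to 30744554, minus strand), also called IEX-1, encodes a regulator of cell survival that NF-κB is known to induce. Its level was 73.9 and 59.5 FPKM in unstimulated control cells and 44.3 and 50.0 FPKM in unstimulated KD cells. With TNF-α it was 245.7 and 246.2 FPKM in control cells and 312.7 and 313.0 FPKM in KD cells. The libraries of a stimulated group differed by a factor of 1.00, whereas the unstimulated control libraries differed by a factor of 1.24. An antisense gene, IER3-AS1, overlaps IER3 and had only 7 reads over the 8 libraries, against 29885 of IER3.

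IER5 (ENSG00000162783, chromosome 1, 181088712 to 181092899, plus strand) encodes a nuclear protein that has been tied to the heat shock factor HSF1. It had 59.5 and 49.8 FPKM in unstimulated control cells, 67.4 and 75.0 in stimulated control cells, 36.8 and 33.3 in unstimulated KD cells and 79.5 and 80.9 in stimulated KD cells. Among the abundant members it moved least with TNF-α in control cells.

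KLF4 (ENSG00000136826, chromosome 9, 107484852 to 107490482, minus strand), a factor of epithelial differentiation and of reprogramming, was at the floor of the assay with 18 reads in all. Its libraries had 4 and 1 reads in unstimulated control cells, 9 and 1 in unstimulated KD cells, 1 and 0 in stimulated control cells and 1 and 1 in stimulated KD cells. A count of 0 allows up to 3 reads, or 0.0532 FPKM in that library, for counting error only. No fold change is given for KLF4.

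KLF6 (ENSG00000067082, chromosome 10, 3775996 to 3785281, minus strand), a widely expressed member of the same family, had 3.53 and 4.68 FPKM in unstimulated control cells, 7.99 and 8.83 in stimulated control cells, 6.79 and 7.20 in unstimulated KD cells and 10.2 and 10.0 in stimulated KD cells. The groups did not overlap. Like EGR1 and TRIB1, and unlike the IER genes and MYC, it was higher in unstimulated KD cells than in unstimulated control cells.

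TRIB1 (ENSG00000173334, chromosome 8, 125430321 to 125438405, plus strand) had 3.87 and 4.62 FPKM in unstimulated control cells, 11.8 and 10.3 in stimulated control cells, 5.33 and 6.13 in unstimulated KD cells and 18.3 and 18.2 in stimulated KD cells. Its groups did not overlap and stood in the same order as those of EGR1.

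MYC (ENSG00000136997, chromosome 8, 127735434 to 127741434, plus strand) had 35.1 and 33.0 FPKM in unstimulated control cells, 71.4 and 70.4 in stimulated control cells, 29.02 and 28.3 in unstimulated KD cells and 83.9 and 84.6 in stimulated KD cells. The libraries of each group differed by a factor of at most 1.06, the tightest of the 8 tested genes in unstimulated control cells.

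To ask which early genes were still raised after 5 h of TNF-α, stimulated control cells were compared with unstimulated ones. IER3, EGR1, TRIB1, MYC and KLF6 rose, IER3 the most. On the log2(FPKM + 1) scale IER3 rose by 1.88 (SE 0.117, adjusted p = 1.1e-04), EGR1 by 1.36 (SE 0.101, adjusted p = 3.1e-04), TRIB1 by 1.201 (SE 0.112, adjusted p = 0.00101), MYC by 1.04 (SE 0.0704, adjusted p = 1.9e-04) and KLF6 by 0.89 (SE 0.120, adjusted p = 0.00673). These tests, and those below, are limma tests over 16528 genes, adjusted by the Benjamini-Hochberg method and called at an adjusted p under 0.05. IER2 (0.53, adjusted p = 0.0633), IER5 (0.38, adjusted p = 0.110) and EGR2 (0.14, adjusted p = 0.404) did not pass. Thus 5 of 8 were called higher and 0 lower, where 3.1% of all genes tested were called higher and 1.14% lower. In 7 of 8, all but EGR2, both stimulated libraries lay above both unstimulated ones, as they did in 22.6% of all genes. The median log2 fold change was 0.96, against 0.01 over all genes. The call of KLF6 was lost with the compared libraries only (adjusted p = 0.0668) and without the second stimulated control library (adjusted p = 0.0760), and IER2 and IER5 passed without the first unstimulated control library (adjusted p = 0.0181 and 0.0303). IER2 passed also in a fit of the recovered reads with voom (adjusted p = 0.0298) and after a correction by GC content and exon length (adjusted p = 0.00813).

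In KD cells the same stimulation raised 7 of the 8, EGR2 being the exception. IER3 rose by 2.71 (SE 0.117, adjusted p = 1.0e-05), EGR1 by 1.59, IER2 by 1.56, MYC by 1.52, TRIB1 by 1.52, IER5 by 1.17 and KLF6 by 0.47 (SE 0.120, adjusted p = 0.00982). The adjusted P-values of EGR1, IER2, MYC, TRIB1 and IER5 lay between 1.3e-05 and 9.8e-05. EGR2 had a difference of 0.19 (adjusted p = 0.0675). EGR2 was called in 5 of 17 alternatives, among them upper-quartile factors (adjusted p = 0.0410), the compared libraries only (0.0435) and the replicate block (0.0471). In all 8 the stimulated libraries lay above the unstimulated ones. This comparison rests on the unstimulated KD libraries, and 31.1% of all genes were called higher in it and 31.4% lower, with both stimulated libraries above both unstimulated ones in 41.3%. After correction by GC content and exon length, the same 7 of 8 were called, with a median of 1.05 against 1.52 without the correction. That corrected fit called 4802 of 16520 genes higher and 4597 lower. The corrected rise was 2.17 for IER3, 1.197 for TRIB1, 1.13 for EGR1, 1.118 for MYC, 0.99 for IER5, 0.92 for IER2 and 0.59 for KLF6, and EGR2 lay at -0.07. The call of KLF6 was lost when reads were scaled to the total of each library (0.13, adjusted p = 0.407), where the median of all genes was -0.19, and without the first unstimulated KD library (adjusted p = 0.0557) or the first stimulated KD library (adjusted p = 0.0527).

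**Figure D2:**
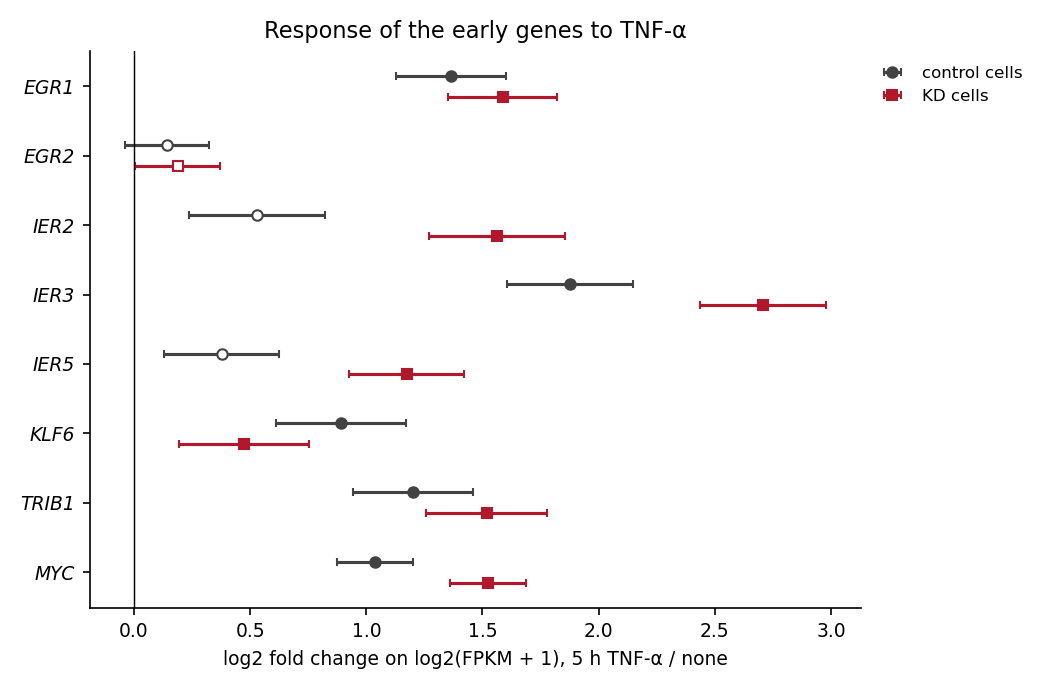
Log2 fold change of each tested gene after 5 h of TNF-α on the log2(FPKM + 1) scale (horizontal axis) in control cells (circles) and KD cells (squares). Bars are 95% confidence intervals from the limma fit, and filled symbols have an adjusted p under 0.05. IER3 had the largest change in both, 1.88 and 2.71, and KLF6 alone had the smaller change in KD cells.

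The difference between these responses was tested as the interaction of KD and TNF-α. The rise was larger in KD cells for IER2 by 1.03 (SE 0.177, adjusted p = 0.00349), for IER3 by 0.83 (SE 0.165, adjusted p = 0.00574), for IER5 by 0.79 (SE 0.151, adjusted p = 0.00488) and for MYC by 0.49 (SE 0.0995, adjusted p = 0.00645). TRIB1 (0.32, adjusted p = 0.138), EGR1 (0.22, adjusted p = 0.240), EGR2 (0.05, adjusted p = 0.759) and KLF6 (-0.42, adjusted p = 0.0788) did not pass. EGR1 was called without the first unstimulated control library (0.37, adjusted p = 0.00797) and stood at 0.072 without the second, where KLF6 was called (-0.58, adjusted p = 0.00610). Upper-quartile factors called EGR1 (0.46, adjusted p = 0.0218) and TRIB1 (0.53, adjusted p = 0.0213) as well, and scaling to totals (adjusted p = 0.0205) and voom (adjusted p = 0.0421) called KLF6. Without correction by GC content and exon length, the 4 genes called are those that were lower in unstimulated KD cells than in unstimulated control cells, so the larger rise started from a lower level. After that correction IER5 alone of the 4 was still lower there. In all, 23.8% of genes were called with a positive and 22.3% with a negative interaction. After correction by GC content and exon length, 2 of the 4 remained called, IER2 (0.42, adjusted p = 0.0190) and IER5 (0.62, adjusted p = 0.0142), and the values fell to 0.31 for IER3 (adjusted p = 0.120) and 0.10 for MYC (adjusted p = 0.346). With that correction 3294 of 16520 genes were called with a positive and 2587 with a negative interaction. MYC was also lost when reads were scaled to library totals (0.19, adjusted p = 0.126), where the median of all genes was -0.14.

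The comparison on which the study centres is that of KD with control cells under TNF-α, which asks whether loss of WSB2 raises TNF-α-induced transcription. In it all 8 tested genes were higher in KD cells on average, EGR2 only with the first stimulated control library included, but none passed the adjusted test. EGR1 and TRIB1 differed the most. The mean of EGR1 was 61.7 ± 0.161 FPKM in KD cells and 38.4 ± 0.334 in control cells, a log2 difference of 0.67 (SE 0.101, adjusted p = 0.0914). TRIB1 had 18.2 ± 0.103 and 11.05 ± 1.06 FPKM, a log2 difference of 0.68 (SE 0.112, adjusted p = 0.117). The others followed with 0.46 for IER2 (adjusted p = 0.308), 0.35 for IER3 (adjusted p = 0.461), 0.24 for MYC (adjusted p = 0.353), 0.24 for KLF6 (adjusted p = 0.697), 0.17 for IER5 (adjusted p = 0.787) and 0.07 for EGR2 (adjusted p = 0.936). The value of IER5 was 0.095 without the first stimulated control library and 0.25 without the second.

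The limma test called 0 of 8 members, where 0.0605% of all genes were called higher and 0.0545% lower, that is 10 and 9 genes of 16528. At an unadjusted p under 0.05, 5 of 8 were higher (EGR1, IER2, IER3, TRIB1 and MYC), against 4.42% of all genes. That count was 3 without the second stimulated control library or without either stimulated KD library, 4 without the first stimulated control library and 7 with the compared libraries only. In 7 of 8, all but EGR2, each KD library exceeded each control library, against 23.9% of all genes. The median difference was 0.30, against -0.00015 over all genes tested. A voom fit of the recovered reads called 2 of 8, against 0.206% of all genes called higher by that fit. They were EGR1 (0.68, adjusted p = 0.0207) and TRIB1 (0.73, adjusted p = 0.032), whose adjusted p ranged over all alternatives from 0.00836 to 0.585 and from 0.032 to 0.648. Without either unstimulated control library, which enters only the shared spread, the same 2 genes were called (adjusted p = 0.00836 or 0.00870 for EGR1, and 0.0361 or 0.0365 for TRIB1). The libraries that stood apart take no part in these differences, and 0 of 8 were called without them. The number of genes called here ran from 0, without the second stimulated KD library, to 98, without the first unstimulated control library.

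**Figure D3:**
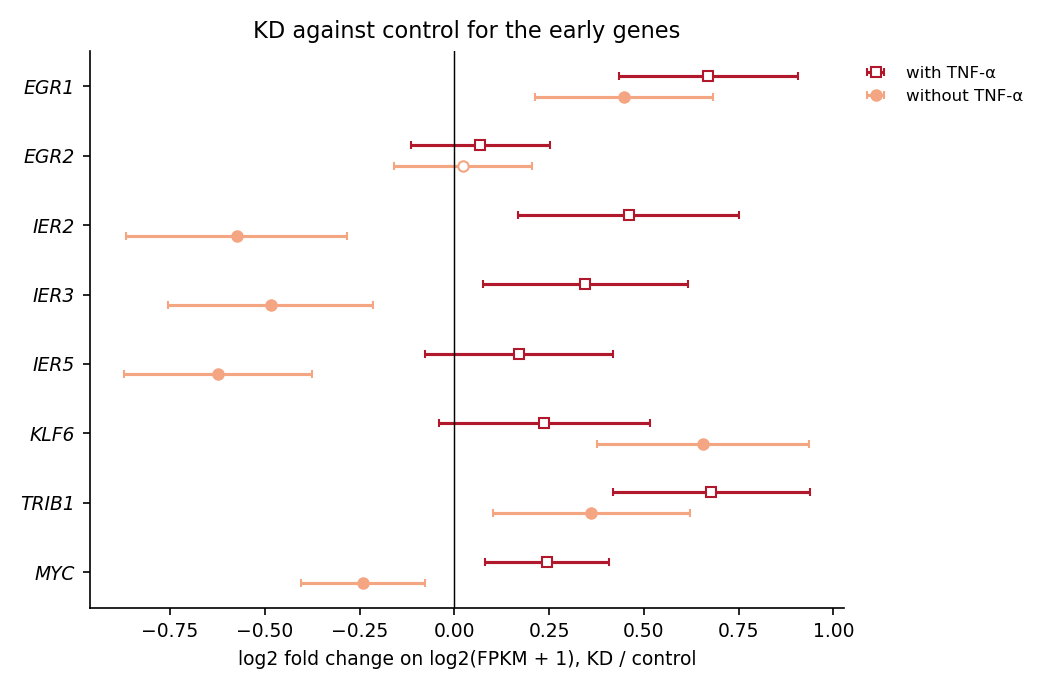
Log2 difference between KD and control cells on the log2(FPKM + 1) scale (horizontal axis) for each tested gene, with TNF-α (squares) and without (circles). Bars are 95% confidence intervals from the limma fit, and filled symbols have an adjusted p under 0.05. With TNF-α all 8 lay above 0 and none was called, and without TNF-α IER2, IER3, IER5 and MYC lay below 0.

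Without TNF-α the early genes moved in both directions. KLF6 was higher in KD cells by 0.66 (SE 0.120, adjusted p = 0.00222), EGR1 by 0.45 (SE 0.101, adjusted p = 0.00614) and TRIB1 by 0.36 (SE 0.112, adjusted p = 0.0239). IER5 fell by 0.62 (SE 0.107, adjusted p = 0.00160), IER2 by 0.57 (SE 0.125, adjusted p = 0.00513), IER3 by 0.48 (SE 0.117, adjusted p = 0.00806) and MYC by 0.24 (SE 0.0704, adjusted p = 0.0189), while EGR2 did not pass (0.02, adjusted p = 0.817). The difference of EGR1 was 0.30 without the first control library and 0.60 without the second, and it was called in both. Leaving out a library ended the call of TRIB1 (adjusted p = 0.0894 without the first control library and 0.147 without the second KD library), of IER3 (adjusted p = 0.0607 without the first KD library) and of MYC (adjusted p between 0.0505 and 0.0996 without any 1 of the 4 KD libraries, stimulated or not). The calls of TRIB1 and MYC were also lost with the compared libraries only (adjusted p = 0.0816 and 0.117), and that of TRIB1 without a filter on low reads (adjusted p = 0.0522). Over all genes 29.8% were called higher and 30.2% lower, and each KD library exceeded each control library in 40.1%, so 3 genes higher and 4 lower of 8 are not far from the background.

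Some of these directions depended on how the libraries were scaled or corrected. After correction by GC content and exon length, IER2 (0.04, adjusted p = 0.693), IER3 (0.05, adjusted p = 0.669) and MYC (0.14, adjusted p = 0.0669) no longer lay below 0 and none of the 3 was called. IER5 alone remained lower, by 0.46 on the log2 scale (adjusted p = 0.00576). EGR1 was higher by 0.88 (adjusted p = 0.00104), TRIB1 by 0.64 (0.00278) and KLF6 by 0.51 (0.00414). EGR2 went from 0.02 to 0.26 and gained a call (adjusted p = 0.0384). It had only 6 to 13 reads in each of these libraries, so that value is not a reliable rise. Thus 4 of 8 were called higher and 1 lower after the correction, where 24.0% of all genes were called higher and 28.2% lower. IER2 and IER3 have the highest GC content of the 8 tested genes, 61.7% and 58.5% of the bases of their longest transcript, and KLF6 the lowest, 45.9%. Scaling to read totals, which moved the median of all genes to 0.13, left MYC at 0.03, below that median, and ended the call of IER3 (-0.21, adjusted p = 0.0971), and upper-quartile factors, which moved it to -0.11, left it at -0.48. EGR1, KLF6 and TRIB1 were above the control and IER5 below it under all 4 ways of scaling or correction, although EGR1 (adjusted p = 0.0754) and TRIB1 (adjusted p = 0.229) were not called with upper-quartile factors.

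**Figure D4:**
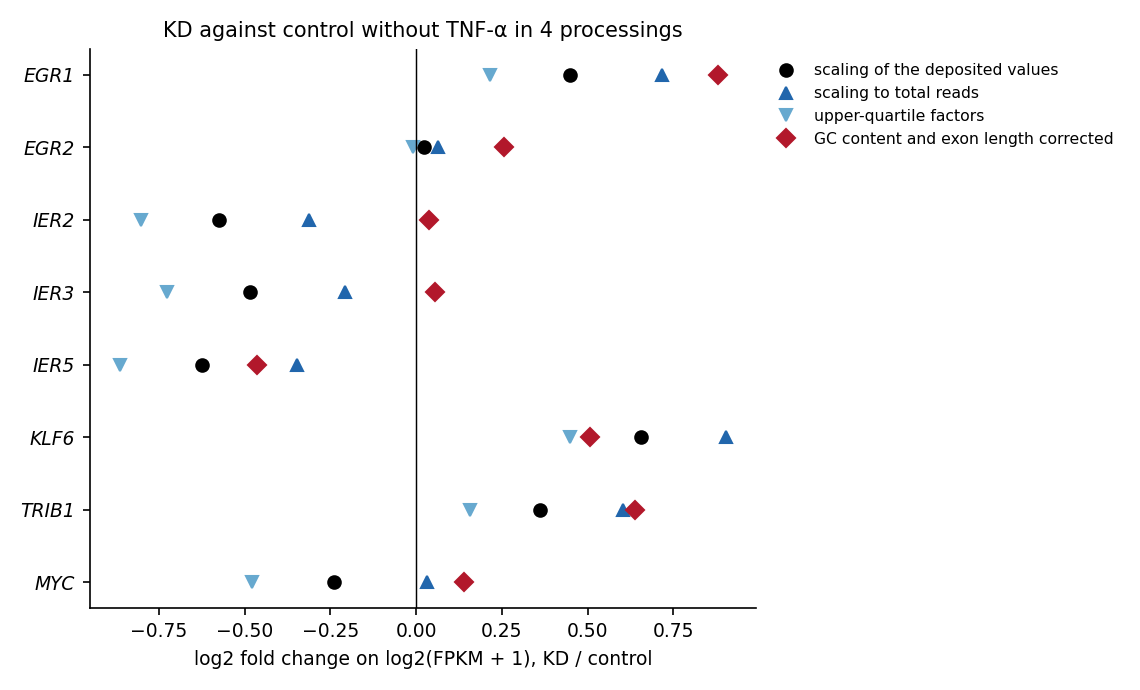
Log2 difference between unstimulated KD and control cells (horizontal axis, log2(FPKM + 1) scale) for each tested gene under 4 ways of processing, named in the legend. IER2, IER3 and MYC changed side of 0 with the correction by GC content and exon length, reaching 0.04, 0.05 and 0.14, while EGR1, KLF6 and TRIB1 stayed above 0 and IER5 below.

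The comparisons of KD with control cells under TNF-α and of TNF-α in control cells share the stimulated control libraries, and values of the members in both are given side by side without a measure of likeness. IER3 had the largest response to TNF-α in control cells, 1.88, and a KD difference of 0.35. EGR1 and TRIB1, with responses of 1.36 and 1.201, had KD differences of 0.67 and 0.68. MYC and KLF6, with responses of 1.04 and 0.89, had KD differences of 0.24 in both. IER2, with a response of 0.53, had a KD difference of 0.46. IER5 had 0.38 and 0.17, and EGR2 0.14 and 0.07. With 1 library left out the response of IER5 ran from 0.25 to 0.50 and that of EGR2 from 0.049 to 0.24, and their KD differences from 0.095 to 0.25 and from -0.024 to 0.16.

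Other genes of the same pathways were examined as lists, which were chosen with earlier results of these data known. None of them was tested as a set, and each is described by its counts and its median. Over all genes tested, TNF-α in control cells raised 3.1% and lowered 1.14%, with a median of 0.01. Between stimulated KD and control cells, 0.0605% of all genes were called higher and 0.0545% lower, 49.9% lay above 0, 23.9% had each KD library above each control library, and the median was -0.00015. The first list held 15 immediate-early transcription factors of the FOS, JUN, NR4A and SRF groups. In control cells TNF-α raised 6 of them and lowered 0, with a median of 0.37. JUNB, an AP-1 subunit, went from 36.9 to 157 FPKM (log2 fold change 2.07, adjusted p = 5.4e-04) and FOSL1, another, from 52.3 to 165 FPKM (1.65, adjusted p = 1.8e-04). Under TNF-α, KD cells showed 0 called in either direction, 12 of 15 above 0, where 49.9% of all genes were, and a median of 0.17.

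A list of 26 other early response genes had 9 raised and 4 lowered by TNF-α in control cells, against 3.1% and 1.14% of all genes. MAFF, a small MAF factor, rose by 1.58 and GADD45A, a stress sensor, by 1.27, and ID2, an inhibitor of helix-loop-helix factors, fell by 1.98 and IER5L, a relative of IER5, by 1.07. Under TNF-α 1 gene was higher in KD cells and 1 lower, with 18 of 26 above 0, against 49.9% of all genes, and a median of 0.20. PHLDA1, a pleckstrin-homology protein, had 2.74 and 2.90 FPKM in stimulated control cells and 5.53 and 5.43 in stimulated KD cells, a log2 difference of 0.76 (adjusted p = 0.0489). BTG2, an antiproliferative gene that p53 induces, had 15.7 and 16.5 FPKM in stimulated control cells and 10.3 and 10.5 in stimulated KD cells, and fell by 0.58 (adjusted p = 0.0489). Neither gene's groups overlapped. Neither was called when any 1 of the 4 stimulated libraries was left out (adjusted p between 0.325 and 0.477), without either unstimulated KD library, or with a pseudocount of 0.1, no filter, other scaling or the replicate block. PHLDA1 was also not called with the compared libraries only (adjusted p = 0.0532), where BTG2 was (adjusted p = 0.0490). Both were called with voom (adjusted p = 0.00308 for PHLDA1 and 0.0358 for BTG2), after the correction by GC content and exon length (0.0208 and 0.0172), also with the block (0.0434 and 0.0340), and without either unstimulated control library (0.0196 or 0.0202 for both).

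The 14 genes of ERK output, of which 13 were tested, include PHLDA1 and FOSL1 again. TNF-α raised 4 of them in control cells and lowered 0. With TNF-α all 13 lay above 0 in KD cells, against 49.9% of all genes, and the median was 0.28. Of the 13, 2 were called higher and 0 lower, against 0.0605% and 0.0545% of all genes, and in 11 each KD library exceeded each control library, against 23.9%. DUSP5, a phosphatase that removes phosphate from ERK, had 12.4 and 11.8 FPKM in stimulated control cells and 25.6 and 26.9 in stimulated KD cells, a log2 difference of 1.05 (SE 0.0824, adjusted p = 0.00883). PHLDA1 was the other gene called. DUSP5 lost its call when any 1 of the 4 stimulated libraries was left out (adjusted p between 0.0998 and 0.195) and kept it under the other alternatives run (adjusted p between 0.00112 and 0.0428).

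**Figure D5:**
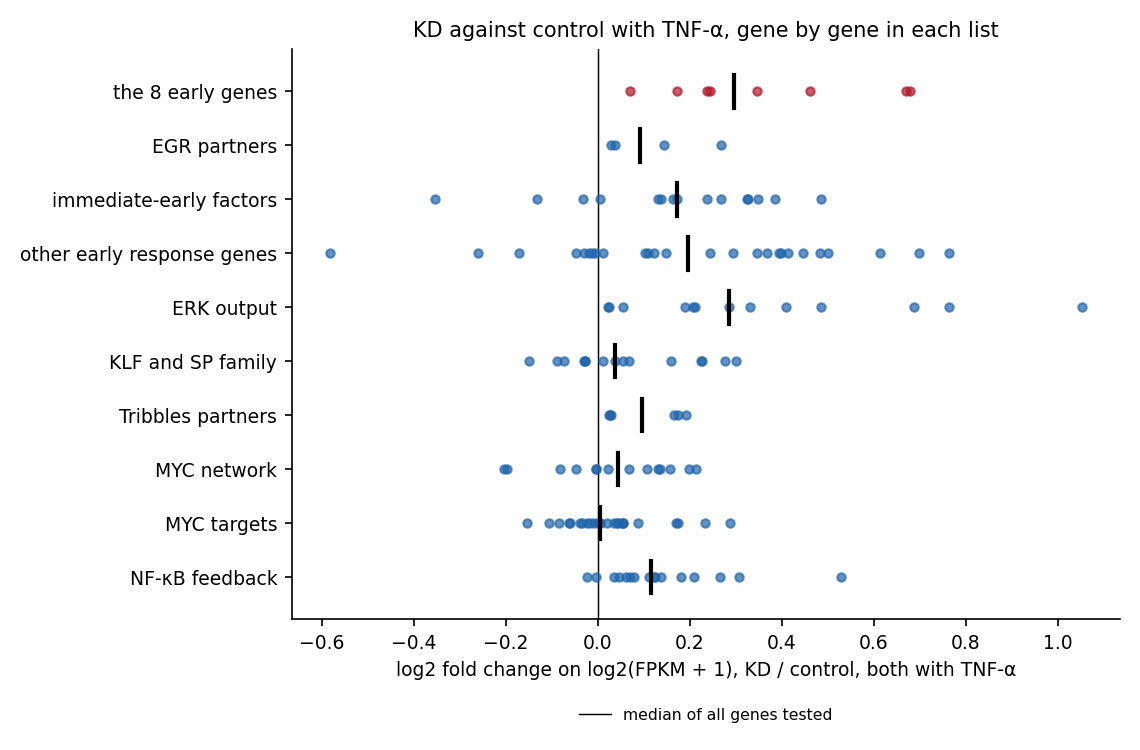
Log2 difference between KD and control cells under TNF-α (horizontal axis, log2(FPKM + 1) scale) for the tested genes of each list. Each point is a gene, the black bar is the median of the list and the thin vertical line is the median of all genes tested, -0.00015. The 8 early genes had a median of 0.30 and the ERK output list of 0.28, while the medians of the MYC targets, the MYC network and the KLF and SP family lay between 0.01 and 0.04.

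The NF-κB feedback list, 16 subunits, inhibitors and modifiers of the pathway, had 14 genes raised and 0 lowered by TNF-α in control cells, against 3.1% and 1.14% of all genes, with a median of 1.85. TRAF1, an adaptor of TNF receptors, rose by 4.43 and TNFAIP3, the A20 inhibitor, by 3.87. Under TNF-α 0 of the 16 were called between KD and control cells, 14 lay above 0, against 49.9% of all genes, and the median was 0.12.

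Partners of the members were examined last. Of 4 EGR partners, 0 were called after TNF-α in control cells or between stimulated KD and control cells, where all 4 lay above 0, against 49.9% of all genes, with a median of 0.09. Without TNF-α, NAB1 was higher in KD cells by 1.13 and NAB2 fell by 0.92, both being corepressors that bind EGR1. That comparison rests on the libraries that stood apart. After correction by GC content and exon length the values were 0.62 for NAB1 (adjusted p = 0.00197) and -0.29 for NAB2 (adjusted p = 0.0137). Of 15 KLF and SP genes tested, KLF9 (0.63) and KLF2 (0.51) rose with TNF-α in control cells and 0 were called between stimulated KD and control cells, with a median of 0.04. Of 6 Tribbles partners found among 7 listed, CEBPB, a transcription factor, rose by 0.49 and TRIB2 fell by 0.74 with TNF-α in control cells, and 0 were called between stimulated KD and control cells, with a median of 0.10.

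MYC itself was higher after TNF-α, and its network and targets were described beside it. Of 14 genes of the MYC and MAX network found among 15 listed, 0 rose and 1 fell with TNF-α in control cells, MYCL by 0.63 on the log2 scale. Of 25 MYC targets of ribosome production and growth, 3 rose and 0 fell, among them RRP12 (0.55) and NOLC1 (0.47), and 24 lay above 0, against 52.4% of all genes, with a median of 0.21. Between stimulated KD and control cells 0 of the network and 0 of the targets were called, with medians of 0.04 and 0.01. Without TNF-α 6 targets were called higher in KD cells and 16 lower, where 29.8% of all genes were called higher and 30.2% lower. NOP58 was higher by 1.58 and RRP9 lower, from 98.5 to 39.5 FPKM, again in the comparison that rests on the libraries that stood apart. After the correction 5 targets were called higher and 13 lower, against 24.0% and 28.2% of all genes, with NOP58 at 1.23 and RRP9 at -0.69.

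Across the 8 libraries the tested members varied together to different degrees. Pearson's r of log2(FPKM + 1) was 0.994 for EGR1 and TRIB1 and 0.998 for IER3 and MYC, and it was lowest for IER5 and KLF6 at 0.415. The 8 points fall into the 4 groups and share them, so these values are a description. Without the 2 libraries that stood apart the values were 0.996 and 0.998, and that of IER5 and KLF6 was 0.869 over 6 libraries. Of all genes tested, those closest to EGR1 were NEDD4L (0.996), POU2F2 (0.995) and TRIB1 (0.994), and those closest to MYC were SDC4 (0.999), SERPINA1 (0.999) and FOSL1 (0.998). The closest to IER3 were SERPINA1 (0.998), TAP2 (0.998) and MYC (0.998), and the closest to KLF6 were PANX1 (0.9899), EGFR (0.988) and MMP13 (0.986). Over the 6 libraries without unstimulated KD cells these 12 values lay between 0.987 and 0.999.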

How the data were processed

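Total RNA of 8 U2OS libraries was sequenced by Novogene (Illumina NovaSeq). The authors deposited FPKM values, 1 per gene and library. The submitters' processing notes name CASAVA 1.8, fastp, HISAT2 2.0.5, featureCounts 1.5.0-p3, DESeq2 1.20.0 and GRCh38, and the study's methods name edgeR for differential expression, which was not run here. The strand of counting is not given in the sources used here. Multiplied by exon length, 100% of the FPKM values came out as whole reads in units of a library-specific factor (tolerance 0.1 read), so reads were recovered. They numbered 15601098 and 16836522 in unstimulated control cells, 16409810 and 15950294 in unstimulated KD cells, 16705041 and 16554410 in stimulated control cells, and 18677023 and 16948782 in stimulated KD cells. Identifiers, positions and exon lengths of all 58735 genes match GENCODE 29.

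Differences were tested two-sided with limma 3.58.1 in R 4.3.3 on log2(FPKM + 1), with a mean per group over all 8 libraries (4 residual degrees of freedom) and a trended prior, for 16528 genes. A gene entered when 2 or more libraries had 10 or more reads, rescaled to the median depth, and all libraries together had 15 or more. The script was tested on simulated data. Genes named are WSB2, the 10 members, at most 2 genes with the largest rise and 2 with the largest fall among those called per list and comparison, and the 3 genes most correlated with each of 4 members. Cell type markers from a list and genes that overlap a member are named besides. The members and lists were chosen with earlier results of these data known. The lists were EGR partners, immediate-early factors, other early response genes, ERK output, KLF and SP family, Tribbles partners, MYC network, MYC targets and NF-κB feedback. Alternatives were a pseudocount of 0.1, no filter, scaling to read totals, upper-quartile factors, the compared libraries only, a replicate block, a voom fit of the reads, a correction of each library by splines (5 degrees of freedom) of GC content and exon length, and leaving out each library. Leaving out both unstimulated KD libraries, also from the correlations, and the correction of the lists were added after seeing the data. Promoters were searched in Python 3.11.15 with pandas 2.3.3.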

Additional observations from a re-analysis of the deposited data

Results flagged for a closer look

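The response to TNF-α differed between KD and control cells by the test of the interaction in 4 early genes, IER2 (1.03), IER3 (0.83), IER5 (0.79) and MYC (0.49), as log2 differences between the responses. All 4 rest on the unstimulated KD libraries, which stood apart in the GC content of genes weighted by reads and in mitochondrial reads. Over all genes tested, 23.8% were called with a positive and 22.3% with a negative interaction. After correction by GC content and exon length IER2 (0.42) and IER5 (0.62) remained called, while IER3 (0.31) and MYC (0.10) did not. The corrected fit called 3294 of 16520 genes with a positive and 2587 with a negative interaction.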

How the results depend on the processing

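Of 688 alternative values of the 40 log2 fold changes of the early genes, 21 changed sign, some of them losing a call as well. Among those that kept their sign, 619 kept their side of the threshold, 23 lost a call and 25 gained one. Between stimulated KD and control cells, 1 early gene was called with the compared libraries only and 2 with voom, and 0 to 2 when a library was left out. Genes called in that comparison, 19 of 16528, numbered 7 without a filter, 12 with upper-quartile factors, 39 with the compared libraries only, 10 with the replicate block, 52 with voom, 68 with the GC and length correction, 42 with block and correction, 7 without both unstimulated KD libraries and 0 to 98 with a library left out, 0 without the second stimulated KD library and 98 without the first unstimulated control library. EGR2 ranged from -0.024 to 0.16 with a library left out, below 0 without the first stimulated control library.

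Between unstimulated KD and control cells, upper-quartile factors left 1 early gene higher. Scaling to totals left 2 lower, the correction 1 (also with the block), and leaving out a library 2 to 4. The correction turned IER2 (0.038), IER3 (0.054) and MYC (0.14), also with the block, and scaling to totals turned MYC (0.033). EGR2 became -0.0086 with upper-quartile factors and -0.027 to 0.073 with a library left out, below 0 without the first unstimulated control library. Of the calls, 49.7% were higher, 65.3% after scaling to totals and 37.8% with upper-quartile factors. The split was 49.8%, 31.4% and 60.1% for TNF-α in KD cells and 51.7%, 32.9% and 64.9% for the interaction.

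For TNF-α in control cells 701 genes were called, 368 without a filter, 238 with the compared libraries only, 443 without both unstimulated KD libraries and 229 to 2130 with a library left out. In KD cells EGR2 went to -0.071 with the correction, also with the block. In the interaction, the correction called 2 early genes higher, also with the block, and scaling to totals and voom called 1 lower, KLF6. Leaving out a library called 0 or 1 lower. EGR1 turned to -0.068 with totals and -0.21 with the correction, and EGR2 to -0.0029 and -0.21, with or without the block. EGR2 was -0.0039 without the second unstimulated control library, -0.047 without the first stimulated control library and -0.0055 without the second stimulated KD library. The cause of these changes was not tested. The interaction could not be fitted on the compared libraries only, since it uses all 8.

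The libraries share replicate numbers. The deviations of same-numbered libraries correlated between unstimulated control and KD cells (0.350) and not over 0.1 in the other 5 pairs of groups (-0.128, -0.0288, -0.191, 0.00552 and 0.0166), so they were not treated as paired. Under the replicate block 8 rather than 7 early genes rose with TNF-α in KD cells, the addition being EGR2, and no other call of an early gene changed. Depth limits EGR2, EGR3 and KLF4.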
